A study of Mus musculus with 62 samples.

Results

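The pore-forming subunits of the AMPA and NMDA receptors were followed through tissue punches from 3 regions of the mouse brain, the prefrontal cortex (PFC), the nucleus accumbens (NAc) and, in the hypothalamus, the suprachiasmatic nucleus (SCN). They are 10 genes, Gria1, Gria2, Gria3, Gria4, Grin1, Grin2a, Grin2b, Grin2c, Grin2d and Grin3a, found by matching the Ensembl identifiers of the deposited rows to these symbols. All 10 were present in both deposited tables, among 12483 genes that either table holds. The tables had been filtered by the authors for low counts, and Grin3b, the remaining NMDA receptor subunit gene, was in neither.

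AMPA receptors carry most fast excitatory transmission in the brain. They are tetramers of GluA1 to GluA4, the products of Gria1 to Gria4, and a receptor that holds edited GluA2 passes little calcium. NMDA receptors combine an obligatory GluN1 (Grin1) with GluN2 subunits (Grin2a to Grin2d), which bind glutamate and set opening kinetics and magnesium block, or with GluN3 subunits such as GluN3A (Grin3a), which bind glycine. In the SCN these receptors receive the retinal input that sets the clock, in the NAc they receive cortical, thalamic and limbic input onto GABAergic projection neurons, and in the PFC they serve synapses between glutamatergic neurons and onto interneurons.

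RNA of 26 mice was sequenced in 62 libraries, each from the tissue of 1 mouse, of which 26 were of NAc, 19 of SCN and 17 of PFC tissue. The mice were C57BL/6J mice of a study of circadian rhythm disruption (CRD), killed at zeitgeber time (ZT) 6 about 4 weeks after CRD or a control schedule had ended. The extraction protocol deposited with the data names mice with adolescent CRD, mice with adult CRD and controls. For the collected tissue, the study's methods name adolescent CRD and controls. Since each library is labelled only with its region and a mouse number, neither CRD against control, age at exposure nor sex was tested. All SCN and PFC mice also gave a NAc library, which made 17 pairs of NAc and PFC, 19 pairs of NAc and SCN and 12 pairs of PFC and SCN from the same animals. The mouse numbers left a gap between J1021 and J1140, and the ranges below and above it are called lower and upper here and were treated as possible batches. Xist, which is transcribed from the inactive X chromosome of female cells, was at or under 6.48 CPM or at or over 53.1 CPM in every library, and in NAc libraries it was at the upper level in 8 of 12 mice of the lower range and 4 of 14 of the upper range. Differences between the ranges given here therefore go with this difference in Xist, and its part in them was not tested.

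The total count per library was 16496666 to 35389742 in the SCN, 28879724 to 60009482 in the NAc and 31216225 to 50333579 in the PFC, of which mitochondrial ribosomal RNA took 20.5% to 69.3%. The region labels matched the marker genes. Striatal projection neuron genes summed to 970 to 2197 CPM (counts relative to the library total, with the total scaled by edgeR's TMM factors) in the NAc and to 54.3 to 110 CPM in the PFC, and cortical glutamatergic genes to 11.6 to 447 CPM in the NAc and to 796 to 939 CPM in the PFC. SCN neuron genes summed to 89.2 to 463 CPM in the SCN. SCN J1199 and SCN J1140 stood apart, with 556 and 262 CPM of 5 striatal genes against a median of 60.4 CPM in the other 17 SCN libraries. SCN J1199 was the highest SCN library for 4 of the 10 subunits and is named where it matters. PFC J1160 was the lowest PFC library for 7 of the 10. NAc J1019 was the lowest NAc library for 5 of them and NAc J965 for 3. Mitochondrial ribosomal RNA took 68.7% of the counts of NAc J1019 and 69.3% of those of NAc J965. SCN J1165 went against its mouse number, with 53.1 CPM of Xist against 0.589 CPM (NAc) and 0.372 CPM (PFC) in the same mouse, and without it 31 of the 33 share comparisons given below passed, as with it.

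The window around the Q/R site of each AMPA subunit gene is shown because RNA editing at this codon, in Gria2, sets whether a receptor passes calcium. In the genome it codes for glutamine in all 4 genes. In Gria2 RNA the middle base is deaminated by ADARB1, which turns the codon into one for arginine. The 27 bases around the codon are given 5′ to 3′ on the coding strand of GRCm38, all within a coding exon, with the codon in capitals.
Gria1, chr11:57243082-57243108, plus strand, codon 600: ggggccttcatgCAGcaaggatgtgac
Gria2, chr3:80706899-80706925, minus strand, codon 607: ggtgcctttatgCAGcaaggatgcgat
Gria3, chrX:41610253-41610279, plus strand, codon 612: ggtgcttttatgCAGcaaggatgtgat
Gria4, chr9:4464125-4464151, minus strand, codon 608: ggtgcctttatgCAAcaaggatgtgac
Any pair of these windows differed at 2 to 4 of the 27 bases. Counts per gene do not show how many transcripts were edited, so the values given here for Gria2 are of its edited and unedited RNA together. Adarb1, the editing enzyme, had medians of 37.9 CPM (SCN), 51.6 CPM (NAc) and 45.1 CPM (PFC), and did not pass the test between NAc and PFC (log2 fold change 0.17 ± 0.086 SE, adjusted p = 0.0738, edgeR).

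By the GENCODE annotation of GRCm38, all 10 are protein-coding genes. Gria1 lies on chromosome 11 from 57011387 to 57330244, Gria2 on chromosome 3 from 80681450 to 80802835, Gria3 on chromosome X from 41400854 to 41678601 and Gria4 on chromosome 9 from 4417896 to 4796234. Grin1 lies on chromosome 2 from 25291181 to 25319187, Grin2a on chromosome 16 from 9567898 to 9995560, Grin2b on chromosome 6 from 135713233 to 136173511 and Grin2c on chromosome 11 from 115249169 to 115267243. Grin2d lies on chromosome 7 from 45831883 to 45878378 and Grin3a on chromosome 4 from 49661611 to 49845744. An antisense gene overlaps 13.5% of the exon bases of Grin1 and another 9.66% of those of Grin2d. The sources used here do not say whether counting used strand. Reads in the shared bases may have been left uncounted or given to either gene, and neither partner was in the tables. The effect on the counts of these 2 genes was not tested.

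Among the AMPA receptor genes, Gria2 and Gria3 had their lowest levels in the SCN and Gria4 in the NAc. Gria1 had medians of 278 CPM (SCN, 206 to 375 CPM), 258 CPM (NAc, 154 to 315 CPM) and 191 CPM (PFC, 141 to 248 CPM). The SCN table was scaled separately from the table of the NAc and PFC, so SCN levels stand beside the others without a test. Gria2, whose product keeps calcium out, had medians of 176 CPM (SCN, 138 to 317 CPM, highest in SCN J1199), 459 CPM (NAc, 378 to 671 CPM) and 432 CPM (PFC, 388 to 533 CPM). No SCN library reached the lowest NAc or PFC library for Gria2. Gria3 had medians of 17.6 CPM (SCN, 11.2 to 49.7 CPM, highest in SCN J1199), 74.5 CPM (NAc, 54.4 to 121 CPM) and 119 CPM (PFC, 88.4 to 152 CPM). Gria4, the gene of a subunit with fast kinetics, had medians of 61.5 CPM (SCN, 54.8 to 71.3 CPM), 36.5 CPM (NAc, 29.6 to 53.6 CPM) and 60.5 CPM (PFC, 52.1 to 67.9 CPM). In the SCN and PFC, Gria4 varied least of the 10 genes between libraries, with coefficients of variation of 8.08% and 6.64%.

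**Figure D1:**
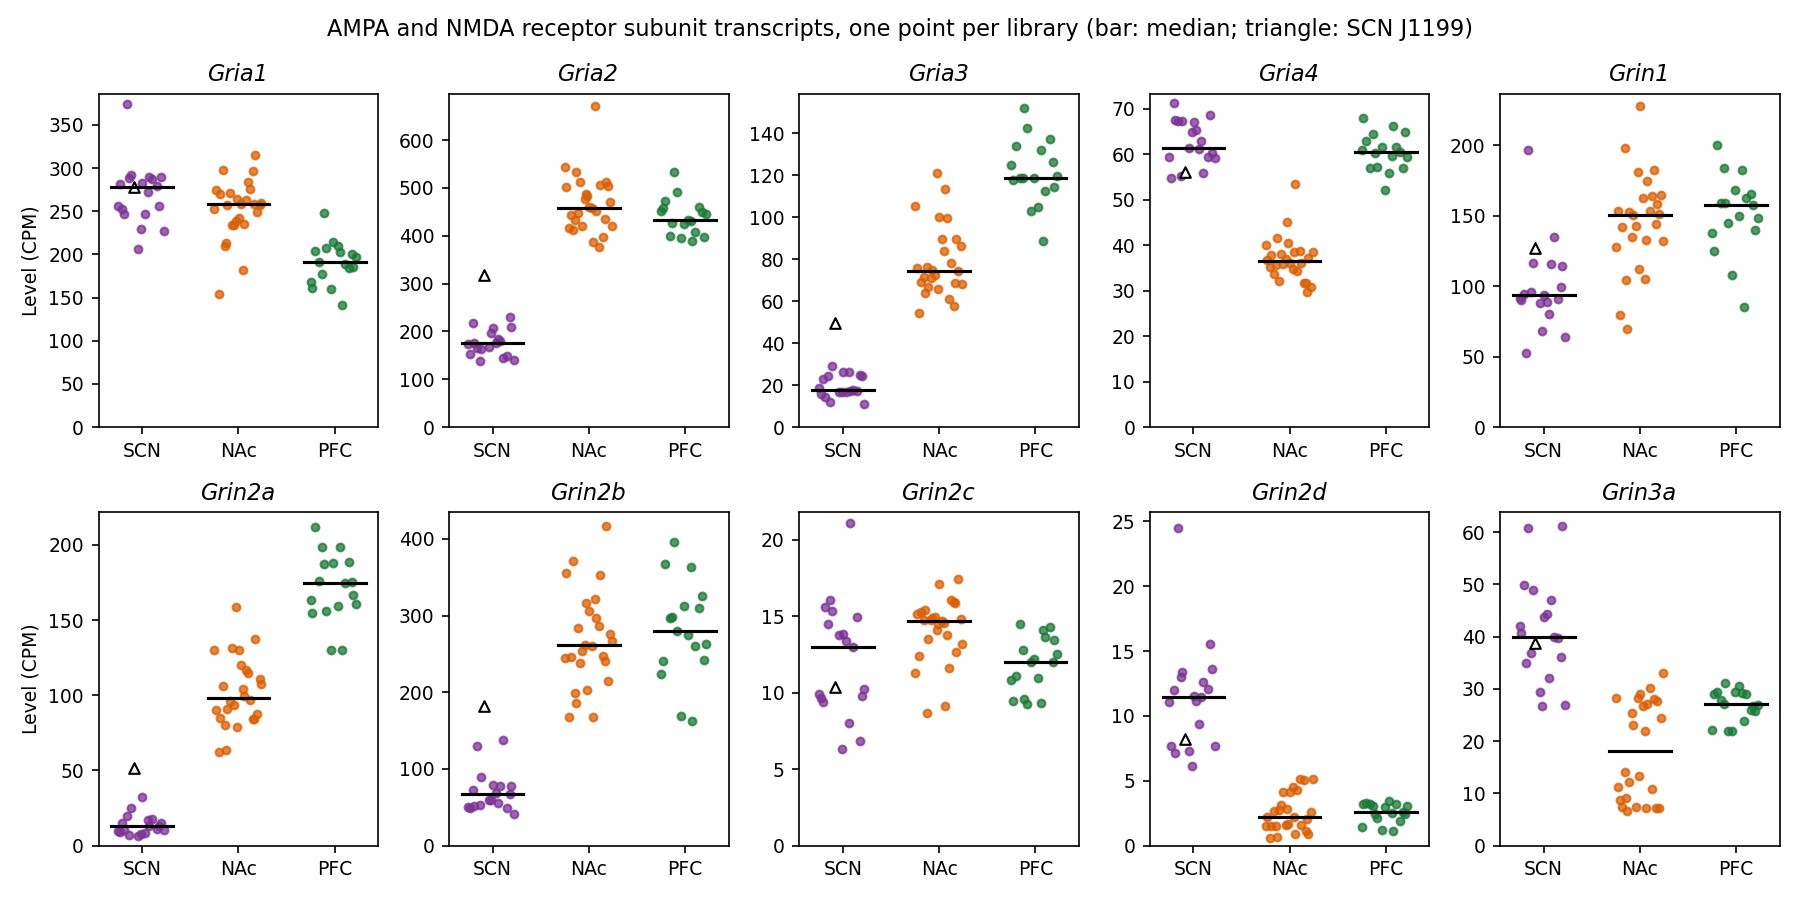
Levels of the 10 subunit genes in CPM (y axis, from 0), with a point for each library of the SCN (n = 19), NAc (n = 26) and PFC (n = 17), a bar at the median and a triangle for SCN J1199. Gria2, Gria3, Grin2a and Grin2b are lowest in the SCN, where SCN J1199 is the highest library for each of them, Grin2d and Grin3a have their highest medians in the SCN, and the NAc libraries of Grin3a lie either at or under 14.1 CPM or at or over 22.04 CPM.

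Among the NMDA receptor genes, Grin1, Grin2a and Grin2b had their lowest medians in the SCN, whereas Grin2d and Grin3a had their highest medians there. Grin1, needed in every NMDA receptor, had medians of 94.1 CPM (SCN, 52.6 to 197 CPM), 151 CPM (NAc, 69.5 to 228 CPM) and 158 CPM (PFC, 85.4 to 200.1 CPM). Grin2a, the subunit that rises with postnatal maturation of synapses, had medians of 12.9 CPM (SCN, 6.66 to 51.4 CPM, highest in SCN J1199), 98.2 CPM (NAc, 62.5 to 159 CPM) and 175 CPM (PFC, 130 to 212 CPM). Grin2b, the main GluN2 subunit of young synapses, had medians of 67.0 CPM (SCN, 41.0 to 182 CPM, highest in SCN J1199), 261 CPM (NAc, 168 to 416 CPM) and 279 CPM (PFC, 162 to 396 CPM). For Grin2a no SCN library reached the lowest NAc library, whereas for Grin2b only SCN J1199 lay above the lowest NAc and PFC libraries. Grin2c, best known from cerebellar granule cells and astrocytes, had overlapping ranges in the 3 regions, with medians of 12.98 CPM (SCN, 6.35 to 21.1 CPM), 14.7 CPM (NAc, 8.68 to 17.4 CPM) and 11.99 CPM (PFC, 9.27 to 14.5 CPM). Grin2d, which gives slow receptors with weak magnesium block, had medians of 11.5 CPM (SCN, 6.11 to 24.5 CPM), 2.19 CPM (NAc, 0.586 to 5.16 CPM) and 2.57 CPM (PFC, 1.12 to 3.45 CPM). Every SCN library was above every NAc and PFC library for Grin2d. Grin3a, whose product lowers calcium permeability, had medians of 40.0 CPM (SCN, 26.7 to 61.1 CPM), 18.1 CPM (NAc, 6.73 to 32.99 CPM) and 27.1 CPM (PFC, 21.98 to 31.1 CPM).

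Scaling all libraries instead to the 10688 nuclear protein-coding genes of both tables left the order of the 3 regions as above for 8 of the 10 genes. The exceptions were Grin1, whose NAc and PFC medians changed places, and Grin2c, whose SCN and PFC medians did. In bulk tissue, fewer cells that express a gene and less RNA per cell cannot be told apart.

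Levels of different genes can be set beside each other only per length, here as CPM per kb of the union of a gene's annotated exons. On that scale Gria1 led in every region, with medians of 46.1 (SCN), 42.7 (NAc) and 31.6 (PFC). Gria2 came next, at 11.3 (SCN), 29.5 (NAc) and 27.8 (PFC). It was below Gria1 in 19 of 19 SCN libraries, 24 of 26 NAc libraries and 14 of 17 PFC libraries. In the SCN, Gria4 (9.75) and Grin1 (9.70) followed and could not be ordered, since Gria4 was the higher in 10 of 19 libraries. Next came Grin3a (3.26), Grin2b (2.70), Grin2c (2.58), Gria3 (1.78), Grin2d (1.72) and, last, Grin2a (0.720). In the NAc the order after Gria2 was Grin1 (15.5), Grin2b (10.5), Gria3 (7.56), Gria4 (5.79), Grin2a (5.48), Grin2c (2.92), Grin3a (1.47) and Grin2d (0.329). Gria4 and Grin2a were close there, with Gria4 the higher in 16 of 26 libraries. In the PFC the order was Grin1 (16.3), Gria3 (12.05), Grin2b (11.2), Grin2a (9.74), Gria4 (9.59), Grin2c (2.38), Grin3a (2.21) and Grin2d (0.386). Grin2a exceeded Gria4 in 9 of 17 PFC libraries and Gria3 exceeded Grin2b in 11 of 17. The order depends on the length used, because the exon unions of Gria2 (15548 bases) and Grin1 (9700 bases) exceed their longest annotated transcripts (10371 and 4276 bases). Per kb of the longest transcript, the PFC order began with Gria2 (41.7), Grin1 (37.0) and Gria1 (34.4), and Grin1 was second in the SCN (22.01).

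A subunit share is a ratio within a library, so shares need no scaling between tables. Each Gria gene was taken as a share of the sum of Gria1 to Gria4, and each Grin2 gene as a share of the sum of Grin2a to Grin2d, in counts per kb of exon. Regions were compared within mice by an exact two-sided sign-flip permutation test, over 33 comparisons, and 31 passed at a Benjamini-Hochberg adjusted p under 0.05. Shares within other groups of genes were not tested, so this count cannot be set against genes in general. The shares of a pool add up to the whole, so a higher share of any gene lowers the others, and the pairs of regions reuse libraries. The comparisons are therefore not independent of each other. The smallest p the test can give is 3.81e-06 with 19 mice, 1.53e-05 with 17 mice and 0.000488 with 12 mice, and a comparison in which every mouse differed in the same direction has that p.

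The AMPA receptor pool of the SCN was rich in Gria1 and poor in Gria2 and Gria3. Gria1 made up a median of 65.3% of the pool in the SCN (57.3% to 72.2%), 49.3% (NAc, 38.2% to 57.3%) and 39.2% (PFC, 33.9% to 42.7%). Within mice the Gria1 share was lower in the NAc than in the SCN by a mean of 16.8 percentage points (SD 5.75) in 19 of 19 mice, at the smallest p. The NAc exceeded the PFC in this share by 9.25 points (SD 4.95, n = 17) in 16 of 17 mice (exact permutation p = 3.05e-05), which fell to 5.52 points and did not pass in the lower range of mouse numbers alone (adjusted p = 0.0543). Gria2 made up 17.2% (SCN, 12.5% to 25.4%), 34.9% (NAc, 29.0% to 42.3%) and 34.6% (PFC, 32.8% to 37.3%). The Gria2 share was higher in the NAc than in the SCN by 17.8 points (SD 4.39) in 19 of 19 mice and higher in the PFC than in the SCN by 18.7 points (SD 2.51) in 12 of 12 mice. Between the NAc and PFC the Gria2 share did not pass the test (mean difference 1.48 points, SD 3.60, higher in the NAc in 11 of 17 mice, exact permutation p = 0.111). With the longest transcript as length the same difference was 2.98 points and passed (adjusted p = 0.00304).

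The Gria3 share was lowest in the SCN, and the Gria4 share was lowest in the NAc. Gria3 was 2.90% of the pool in the SCN (1.80% to 6.27%), 8.70% (NAc, 6.82% to 13.6%) and 15.2% (PFC, 12.97% to 16.6%). Its share was higher in the PFC than in the NAc in 17 of 17 mice, with a mean difference between NAc and PFC of -6.00 points (SD 1.70), and higher in the NAc than in the SCN in 19 of 19 mice, by 6.66 points (SD 1.54). Gria4 was 14.5% (SCN, 11.1% to 17.3%), 6.77% (NAc, 4.75% to 8.84%) and 11.5% (PFC, 9.53% to 15.5%). No NAc library overlapped with the other regions in the Gria4 share, which was lower in the NAc than in the PFC in 17 of 17 mice and lower than in the SCN in 19 of 19 mice. Between PFC and SCN the Gria4 share differed by only -2.01 points (SD 2.41, lower in the PFC in 9 of 12 mice, exact permutation p = 0.0171), and this no longer passed in mice of the upper range alone (-1.68 points, adjusted p = 0.158).

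**Figure D2:**
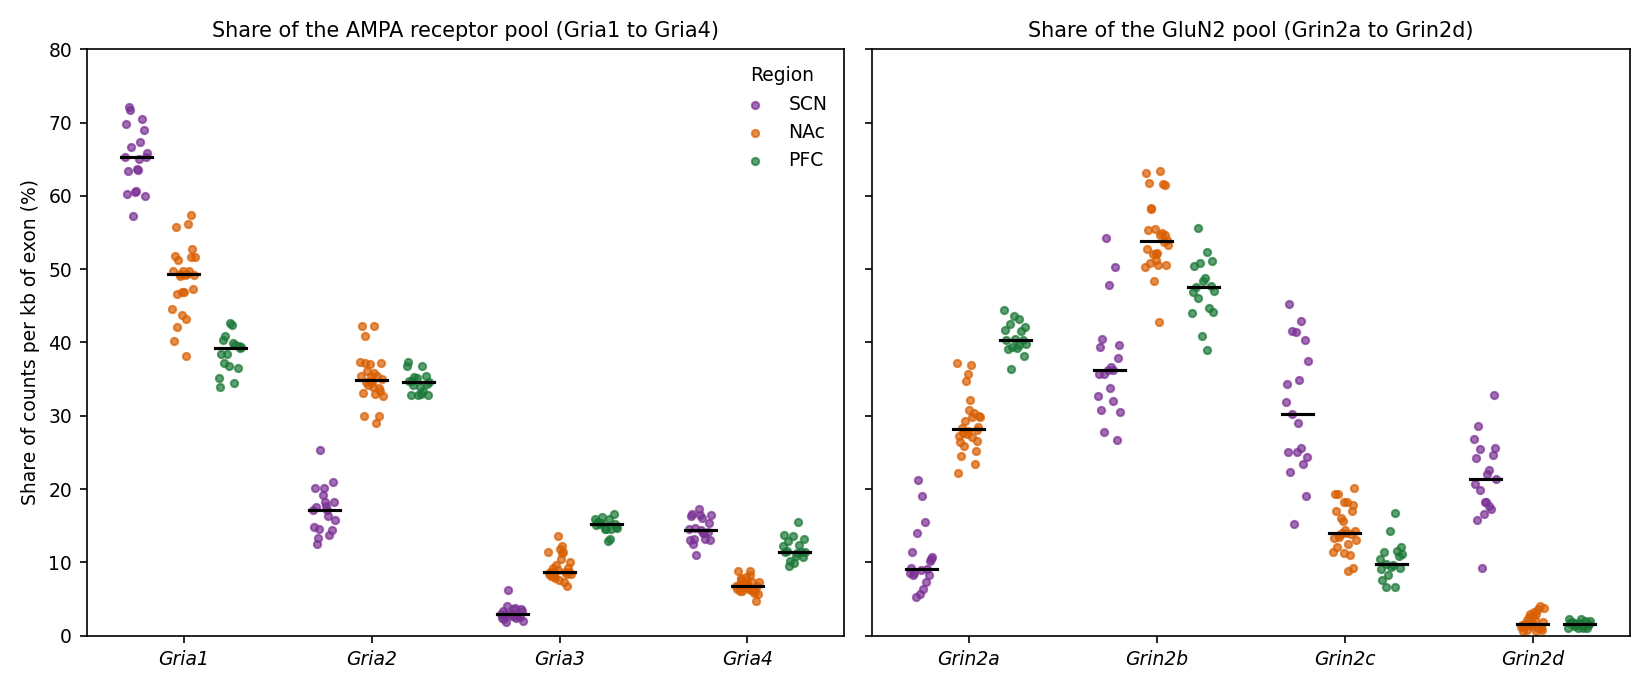
Share of each subunit gene in its pool (y axis, percent of counts per kb of exon), with a point for each library of the SCN (n = 19), NAc (n = 26) and PFC (n = 17) and a bar at the median. Left, Gria1 to Gria4, with the SCN highest for Gria1 and lowest for Gria2 and Gria3. Right, Grin2a to Grin2d, with Grin2a rising from a median of 9.14% in the SCN to 40.3% in the PFC and Grin2d at 21.4% in the SCN against 1.63% (NAc) and 1.64% (PFC).

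The GluN2 pool of the SCN was poor in Grin2a and rich in Grin2c and Grin2d. Grin2a made up a median of 9.14% of it in the SCN (5.29% to 21.3%), 28.2% (NAc, 22.1% to 37.1%) and 40.3% (PFC, 36.4% to 44.4%). Its share was lower in the NAc than in the PFC in 17 of 17 mice, with a mean difference of -12.3 points (SD 3.44), and higher in the NAc than in the SCN in 19 of 19 mice, by 18.99 points (SD 5.37). The SCN and NAc ranges of the Grin2a share came nearest at SCN J1199. Without SCN J1199 and SCN J1140 the difference between NAc and SCN was 19.7 points. Grin2d was 21.4% of the pool in the SCN (9.19% to 32.9%), 1.63% (NAc, 0.677% to 4.10%) and 1.64% (PFC, 1.01% to 2.33%). The Grin2d share was lower in the NAc than in the SCN by 19.6 points (SD 5.76) in 19 of 19 mice and lower in the PFC than in the SCN by 20.4 points (SD 3.89) in 12 of 12 mice. The Grin2d share did not pass the test between NAc and PFC (mean difference -0.010 points, SD 0.933, n = 17, exact permutation p = 0.965).

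Grin2b and Grin2c took up the remainder. Grin2b was 36.2% (SCN, 26.7% to 54.3%), 53.8% (NAc, 42.8% to 63.4%) and 47.6% (PFC, 39.0% to 55.7%). In the Grin2b share the NAc exceeded the PFC by 7.27 points (SD 5.52) in 16 of 17 mice (exact permutation p = 0.000168). Its difference between PFC and SCN, 10.3 points (SD 7.21, higher in the PFC in 11 of 12 mice, exact permutation p = 0.00195), turned to -6.19 points without division by gene length (adjusted p = 0.00884), so its direction rests on the length. Grin2c was 30.3% (SCN, 15.3% to 45.2%), 14.02% (NAc, 8.87% to 20.2%) and 9.75% (PFC, 6.62% to 16.7%). Without division by length these medians were 10.7% (SCN), 3.67% (NAc) and 2.50% (PFC). The level of Grin2c itself had overlapping ranges in the regions, so its larger share in the SCN does not mean a higher level there. In the Grin2c share the NAc exceeded the PFC by 4.998 points (SD 3.83) in 16 of 17 mice (exact permutation p = 3.05e-05) and lay under the SCN by 16.7 points (SD 8.38) in 19 of 19 mice.

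As a share of all 6 NMDA receptor genes, Grin3a was 15.3% (SCN, 10.6% to 20.1%), 4.31% (NAc, 1.70% to 7.38%) and 5.25% (PFC, 4.57% to 7.07%). Every SCN library lay above every other library in the Grin3a share. Grin1 was 47.6% (SCN, 35.9% to 53.2%), 40.8% (NAc, 34.8% to 47.5%) and 37.9% (PFC, 32.04% to 40.1%). In the Grin1 share the NAc was above the PFC in 14 of 17 mice (mean difference 3.12 points, SD 3.56, exact permutation p = 0.00345), but in the lower range of mouse numbers alone the difference was 0.175 points and did not pass. The 4 Gria genes together made up medians of 76.4% (SCN), 69.7% (NAc) and 66.9% (PFC) of all subunit counts per kb, with the NAc above the PFC in 14 of 17 mice.

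The NAc and PFC share a table, and their levels were tested by edgeR's quasi-likelihood method over all 11569 rows, with a gene called where the adjusted p was under 0.05 and the levels differed at least 1.2-fold. Of the 10 subunit genes 5 were called, 1 higher and 4 lower in the NAc. Over all rows 45.4% were called, 23.7% higher and 21.7% lower, so the number of subunits called was near that of genes in general. Their median log2 fold change was -0.06, against 0.016 for all rows. Differences are given as log2 fold change of NAc over PFC ± SE.

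Gria1 was higher in the NAc, by 0.40 ± 0.064 (fold 1.32, adjusted p = 4.96e-07), in 15 of 17 mice. Of the 26 NAc libraries 17 lay above all PFC libraries and 9 within their range. Gria4 was lower in the NAc (-0.71 ± 0.048, adjusted p = 1.48e-17), in 17 of 17 mice, and all NAc libraries but NAc J1018 lay below the PFC range. Gria3 was lower in the NAc as well (-0.62 ± 0.079, adjusted p = 3.21e-09), in 17 of 17 mice, with 19 of 26 NAc libraries below the PFC range. Gria2 did not pass (0.09 ± 0.052, adjusted p = 0.127, higher in the NAc in 12 of 17 mice), and 22 of 26 NAc libraries lay within the PFC range.

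Among the NMDA receptor genes, Grin2a was lower in the NAc (-0.75 ± 0.085, adjusted p = 1.51e-10), in 16 of 17 mice, with 21 of 26 NAc libraries below the PFC range. Grin3a was also lower (-0.55 ± 0.19, adjusted p = 0.00912), in 14 of 17 mice. Its spread was wide, and 12 of 26 NAc libraries lay within the PFC range and 1 above it. The call of Grin3a did not hold in the lower range of mouse numbers (-0.61, adjusted p = 0.0803) or in the upper range (-0.51, adjusted p = 0.0695) alone. In the 17 mice with both regions, its difference was -1.08 with the mouse as a block and -0.88 without a block. Part of the change from -0.55 thus came with the choice of libraries. Grin2c passed the adjusted p but not the fold change (0.25 ± 0.071, fold 1.19, adjusted p = 0.00234, higher in the NAc in 15 of 17 mice), and was called in the upper range alone (0.30, adjusted p = 0.00223). Grin1 (-0.05 ± 0.10, adjusted p = 0.667) and Grin2b (-0.07 ± 0.10, adjusted p = 0.58) did not pass, each higher in the NAc in 8 of 17 mice. Grin1 was called lower in the NAc in the lower range alone (-0.35, adjusted p = 0.0487) and was 0.17 in the upper range. Grin2d did not pass (0.02 ± 0.21, adjusted p = 0.939) and was higher in the NAc in 6 of 17 mice.

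**Figure D3:**
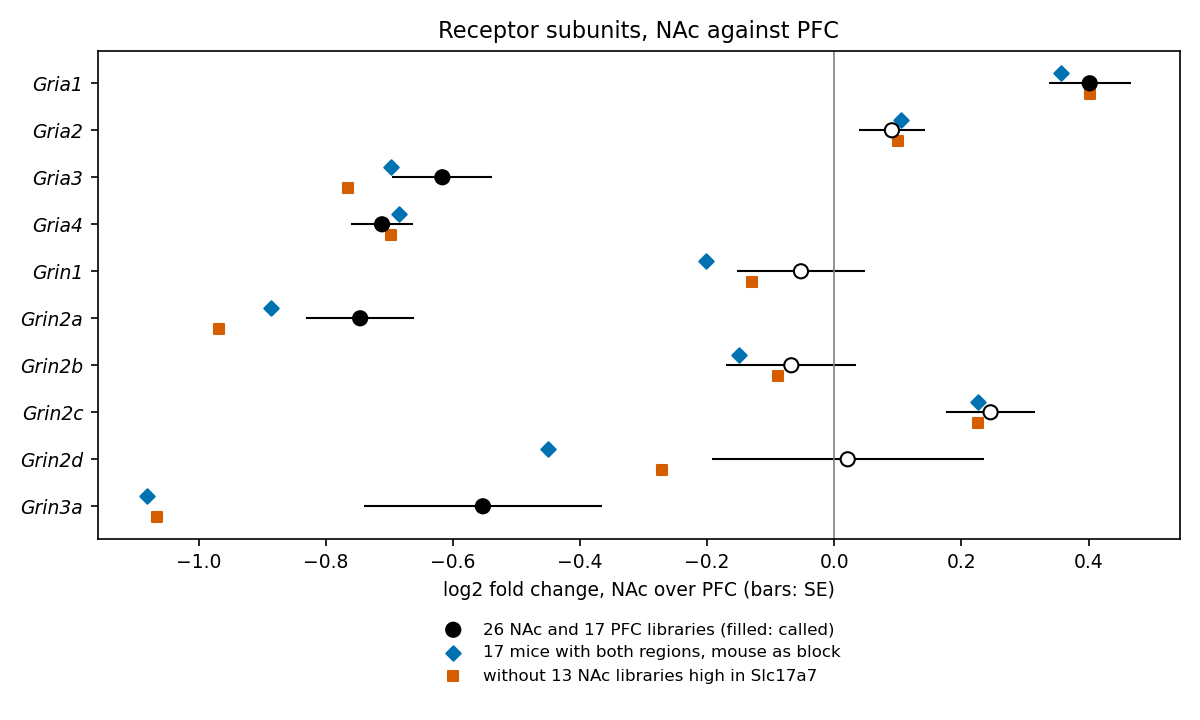
Log2 fold change of NAc over PFC (x axis) for the 10 subunit genes, with black circles and SE bars for 26 NAc and 17 PFC libraries (filled where called), blue diamonds for the 17 mice with both regions with the mouse as a block, and orange squares without the 13 NAc libraries high in Slc17a7. Gria1 lies to the right, Gria3, Gria4 and Grin2a to the left under each, and Grin3a moves from -0.55 to -1.08 and -1.07.

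Whether the difference between NAc and PFC itself differed between the ranges of mouse numbers was tested as an interaction over the 11569 rows. No subunit gene passed by edgeR or DESeq2. Grin1 came nearest by edgeR (upper minus lower range 0.52 ± 0.19, p = 0.00896, adjusted p = 0.17) and was the only subunit gene at an unadjusted p under 0.05. Over all rows edgeR called 0 genes and DESeq2 called 23, with 2279 and 2329 at an unadjusted p under 0.05.

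Marker genes of several cell types also differed between NAc and PFC, where 45.4% of all rows were called. Of 8 general neuron markers 6 were lower in the NAc (median log2 fold change -0.83), and they summed to 881 to 2586 CPM in the NAc against 2159 to 3045 CPM in the PFC. Of 8 oligodendrocyte markers 8 were higher in the NAc (667 to 1588 CPM against 146 to 441 CPM), 2 of 7 astrocyte markers were lower, and 0 of 6 microglia markers were called. Striatal projection neuron markers were higher in 7 of 7 cases and cortical glutamatergic markers lower in 7 of 7. The part of these markers in the differences of the subunit genes was not tested.

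Genes that work with these receptors were followed in lists. Their counts of called genes stand beside 45.4% called over all rows, 23.7% higher and 21.7% lower in the NAc. Of 6 kainate and delta receptor subunit genes, 2 were higher and 2 lower in the NAc. Grik2, a kainate receptor subunit gene, was higher by 1.10 ± 0.093 in 17 of 17 mice, and Grid1, of the delta family, by 0.57 ± 0.062. Grik1 (-0.81 ± 0.15) and Grik4 (-0.72 ± 0.090) were lower. The kainate subunit genes thus differed in both directions.

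Of 23 AMPA receptor auxiliary and assembly genes, 7 were higher and 11 lower in the NAc, with a median log2 fold change of -0.27. The higher genes were led by Cacng5 (1.91 ± 0.16) and Cacng4 (1.76 ± 0.12), which code for transmembrane AMPA receptor regulatory proteins, followed by Olfm3 (1.12 ± 0.11) and Shisa9 (0.83 ± 0.082), whose product CKAMP44 modulates desensitization. Cacng4 had medians of 33.4 CPM (NAc) and 10.4 CPM (PFC). The lower genes were led by Nptxr (-2.54 ± 0.19) and Nptx1 (-1.93 ± 0.21), whose products cluster AMPA receptors from outside the cell, and by Olfm1 (-2.10 ± 0.17) and Olfm2 (-1.82 ± 0.17). Nptxr had medians of 36.0 CPM (NAc) and 255 CPM (PFC) and was lower in the NAc in 17 of 17 mice.

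Of 9 NMDA receptor partner and co-agonist genes, 4 were higher and 2 lower. Neto1, a partner of NMDA and kainate receptors, was higher in the NAc by 1.28 ± 0.046 in 17 of 17 mice, and its kin Neto2 by 1.18 ± 0.10. The glycine transporter gene Slc6a9 was higher by 0.54 ± 0.084, in 16 of 17 mice. Slc7a10, which codes for a carrier of D-serine and glycine, was called higher (0.33 ± 0.11), but only 9 of 17 mice had more in the NAc. Ephb2 (-1.32 ± 0.12) and Lrfn2 (-0.98 ± 0.11) were lower. Of 24 postsynaptic scaffold and signalling genes, 3 were higher and 10 lower. Homer2 (-2.35 ± 0.13), Shank1 (-1.54 ± 0.18), Dlgap1 (-1.28 ± 0.094) and the kinase gene Camk2a (-0.88 ± 0.073) were lower, each in 17 of 17 mice. Camk2b (0.66 ± 0.081, 15 of 17 mice), Shank3 (0.43 ± 0.11, 13 of 17) and Gripap1 (0.35 ± 0.11, 12 of 17) were higher. The alpha and beta genes of this kinase therefore differed in opposite directions.

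**Figure D4:**
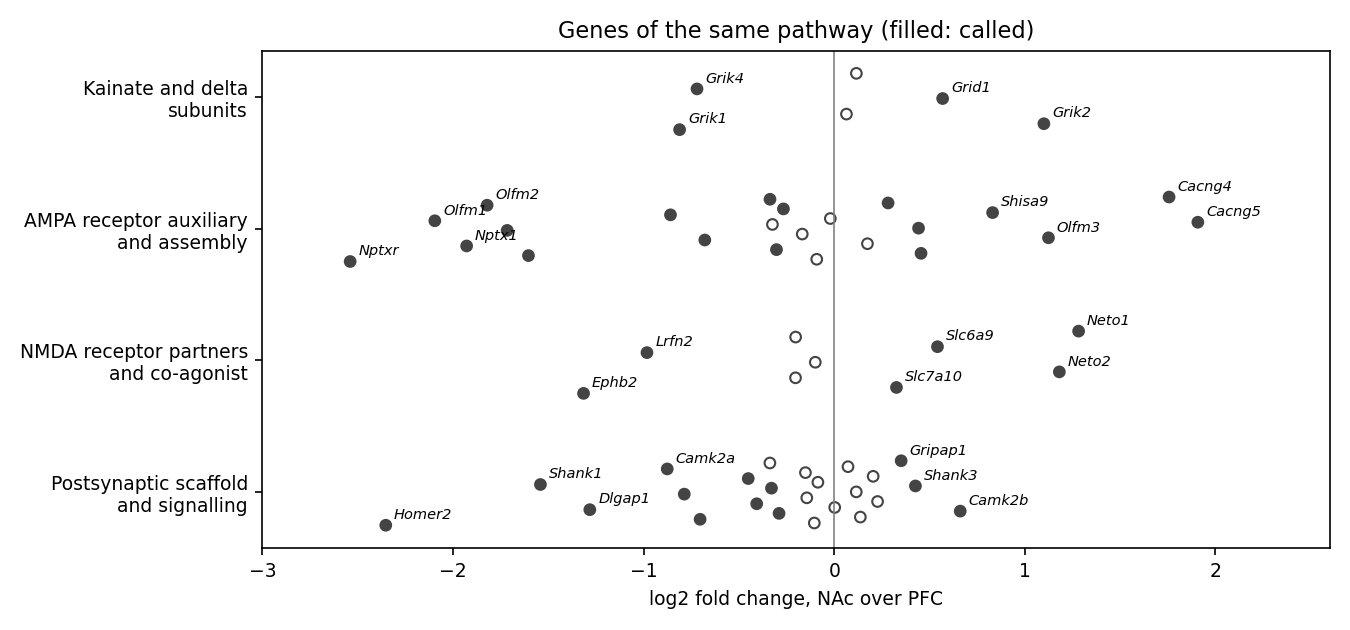
Log2 fold change of NAc over PFC (x axis) for genes of 4 lists, with a point for each gene in the table, filled where called and named for up to 4 called genes in each direction per list. The AMPA receptor auxiliary genes spread most widely, from -2.54 for Nptxr to 1.91 for Cacng5.

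NAc libraries differed in Slc17a7, the vesicular glutamate transporter gene of cortical neurons, which ranged from 4.597 to 340 CPM (NAc, median 64.6 CPM) and from 543 to 647 CPM in the PFC. In 13 of 26 NAc libraries it was over 60.9 CPM, which is 10% of the PFC median. Where this Slc17a7 RNA came from was not tested. Log2 CPM of each subunit gene was correlated with that of Slc17a7 over the 26 NAc libraries by a permutation test, adjusted over all rows. Of the 10 subunits 5 passed, whereas 40.2% of all rows did, so the share of subunits was near that of genes in general.

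Grin2a followed Slc17a7 most closely (Pearson r = 0.77, permutation p = 1e-05, the smallest possible, adjusted p = 0.000201, and Spearman rho = 0.77, p = 1e-05). It held in the lower range of mouse numbers (r = 0.80, n = 12), in the upper range (r = 0.74, n = 14) and without the 2 libraries farthest from the Slc17a7 median (r = 0.73). Grin3a also passed (adjusted p = 0.000435), but its libraries fell into separate levels described next, so no pooled r is given. By rank its adjusted p was 0.00236 and without the 2 farthest libraries 0.00494. It passed in the upper range of mouse numbers (adjusted p = 0.0288) but not in the lower (adjusted p = 0.0888). Grin2d followed (r = 0.61, permutation p = 0.00089, adjusted p = 0.00501, rho = 0.54, p = 0.00553), with r = 0.55, 0.63 and 0.49 in the same subsets, in none of which it passed the adjustment. The relations of Gria3 (r = 0.46, permutation p = 0.0177, adjusted p = 0.0454, rho = 0.50, p = 0.00945) and Grin1 (r = 0.45, permutation p = 0.0198, adjusted p = 0.0494, rho = 0.34, p = 0.0848) were weaker. That of Grin1 was 0.65 in the lower range and 0.11 in the upper range, and did not pass without the 2 farthest libraries (r = 0.33), whereas that of Gria3 was 0.37, 0.61 and 0.52. For Gria1 (r = 0.071), Gria2 (-0.27), Gria4 (-0.14), Grin2b (0.18) and Grin2c (0.25) no relation passed.

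Grin3a fell into separate levels in the NAc. In 13 libraries it lay between 6.73 and 14.1 CPM and in the other 13 between 22.04 and 32.99 CPM, where 11 of the 13 upper libraries and 2 of the 13 lower ones had Slc17a7 over the limit. The relation inside either level cannot be tested, because Grin3a itself defines the levels. Each level held 6 libraries of the lower range of mouse numbers and 7 of the upper range. Without the 13 NAc libraries over the Slc17a7 limit, the difference between NAc and PFC was -1.07 for Grin3a, -0.97 for Grin2a and -0.77 for Gria3, against -0.55, -0.75 and -0.62 with all libraries, while Gria1 (0.40) and Gria4 (-0.70) stayed near their values.

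**Figure D5:**
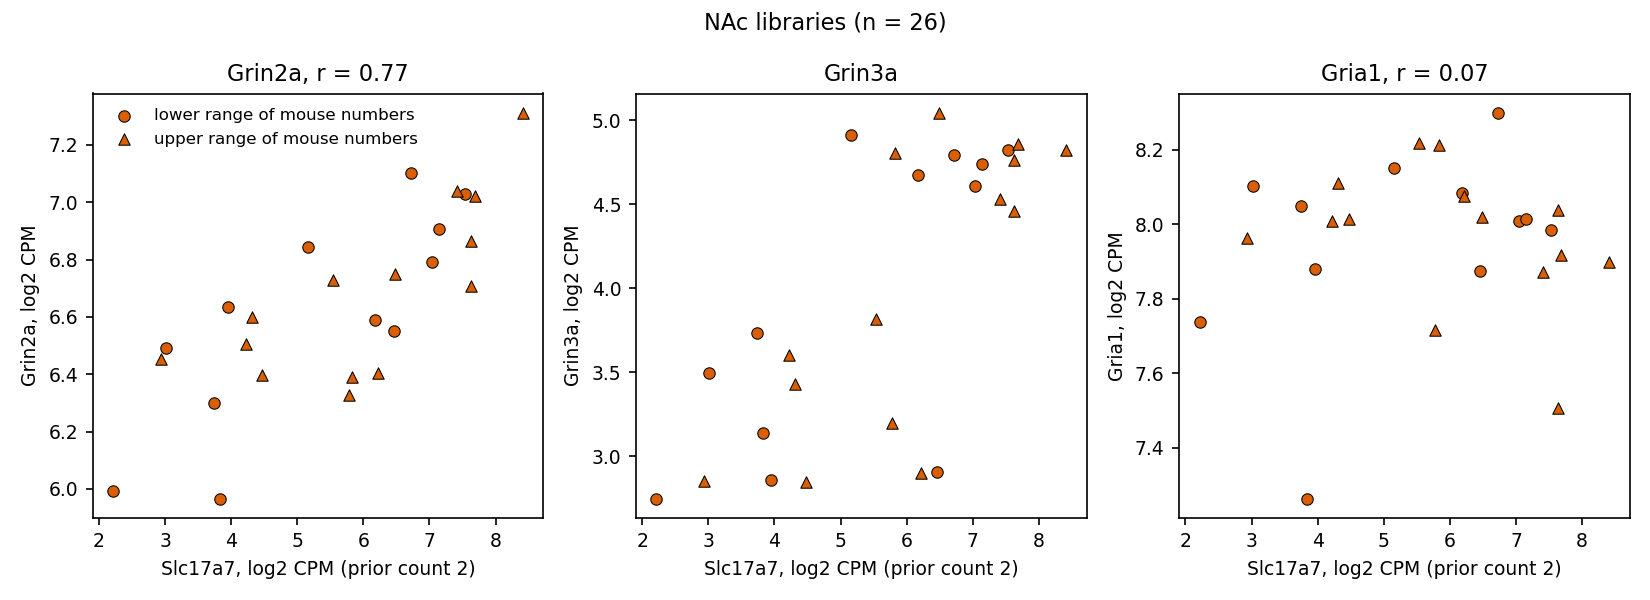
Log2 CPM of Grin2a, Grin3a and Gria1 (y axes) against log2 CPM of Slc17a7 (x axis) in the 26 NAc libraries, with circles for the lower and triangles for the upper range of mouse numbers. Grin2a (r = 0.77) rises with Slc17a7, Grin3a lies at either of 2 levels with most high-Slc17a7 libraries at the upper one, and Gria1 (r = 0.07) shows no relation that passed.

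In the SCN, each subunit was set against the mean z-score of 9 genes of SCN neurons, such as Avp, Vip and Six6, called the SCN neuron score here, by the same permutation test. Gria2 (Pearson r = -0.71, permutation p = 0.00065, adjusted p = 0.0342) and Gria3 (r = -0.76, permutation p = 0.00016, adjusted p = 0.0138) passed, both lower where the score was higher, and 2.38% of all rows passed. By rank the relations were weaker and did not pass the adjustment (Gria2 rho = -0.64, p = 0.0036, and Gria3 rho = -0.64, p = 0.00433). Leaving out SCN J1199 and SCN J1140, which held striatal genes, gave r = -0.55 for Gria2 and -0.62 for Gria3, and leaving out the 2 libraries farthest from the median score gave -0.66 and -0.61, none of which passed. In the lower range of 7 libraries r was -0.56 for Gria2 (exact permutation p = 0.189) and -0.78 for Gria3 (exact permutation p = 0.0413), and in the upper range of 12 libraries -0.83 and -0.82, again not past the adjustment. Grin2a (r = -0.59, adjusted p = 0.153) and Grin2c (r = 0.53, adjusted p = 0.243) did not pass, nor did the other 6 subunits, whose r lay between -0.26 and 0.13.

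Across all 62 libraries, with the mean of each region removed, the subunit genes varied together in part. The points share their libraries and depth, so these correlations are descriptions only. They also hold the high SCN J1199 values of Gria2, Gria3, Grin2a and Grin2b. Removing region means leaves the separate levels of Grin3a in the NAc, so an r with Grin3a need not mean a graded relation. Gria3 varied with Grin2a (r = 0.79) and with Gria2 (0.74), Grin2d with Grin3a (0.79) and Grin1 with Grin2b (0.77). Gria4 varied little with the rest, at most at 0.32 with Gria2, and Gria2 and Grin2c varied inversely (-0.43). Outside the 10 genes, the gene nearest in pattern to Grin1 was Adgrl1 (r = 0.94), to Grin3a Pcdh8 (0.94), to Grin2b Cacna1e (0.92), to Grin2d Tmem130 (0.88), to Grin2a Arhgef3 (0.86), to Gria1 Lsamp (0.85), to Gria3 Enc1 (0.82) and to Gria2 Negr1 (0.78). Grin2c (Sik1, 0.64) and Gria4 (Gm38393, 0.60) had no gene as close. Each of these genes was picked for the highest r, which was not equal in every region. In the PFC alone, r with the same gene was lower for Grin2c (0.31), Gria4 (0.39), Gria2 (0.51), Grin2a (0.68), Grin3a (0.68), Gria3 (0.78) and Grin2d (0.78). It was higher there for Gria1 (0.94), Grin2b (0.94) and Grin1 (0.98).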

How the data were processed

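Libraries were made by the authors from low-input RNA with SmartSeq HT chemistry and sequenced from both ends on an Illumina NextSeq. Quality was checked with FastQC 0.11.7, reads were aligned with HISAT2 to Ensembl GRCm38, and HTSeq in its union mode counted them per gene. The deposited values are raw counts after the authors' filter on low genes, with the SCN in a table of 12047 rows and the other regions in a table of 11569 rows. The annotation release and strand setting are not given in the sources used here. Gene types, positions and exon lengths came from the GENCODE annotation provided for GRCm38.

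Counts were scaled to CPM within each table with TMM (edgeR 4.0.16 in R 4.3.3, prior count 2 for log2 CPM). For NAc against PFC, edgeR's quasi-likelihood test was fitted to all 43 libraries without a block, after filterByExpr, which removed 0 rows. The SE of a log2 fold change is its size divided by the square root of F. The same 17 mice gave both regions, which pairs their libraries. The correlation of a mouse's deviations from the region means was -0.449 to 0.272 (median 0.006) and over 0.1 in 7 of 17 mice.

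Shares were tested by exact sign-flip permutation. Correlations used 100000 permutations, exact for 7 libraries, and were adjusted over all rows of a table, although an adjustment over the 10 genes had been planned. Alternatives were DESeq2 1.42.0, its size factors, other filters, lengths and prior counts, the block, ranges of mouse numbers, rank correlation and leaving out libraries. Leaving out PFC J1160 was added after seeing these values. Scripts were tested on simulated data. Within regions, every 2 libraries differed by more than counting noise.

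The 10 genes and all lists were chosen with earlier results of these data known. A gene of the listed pathways is not reported here. The text names the 10 genes, up to 4 called genes in each direction per list, and the gene nearest in pattern to each. Adarb1 and the genes of the SCN score named in the text were chosen as list members. P-values of edgeR without a block measure the spread between libraries, with the 2 libraries of a mouse taken as independent. Those of the sign-flip test measure the spread of differences within mice. Correlation p-values come from shuffling libraries of different mice. For all of them, the labels do not give the group or sex of the mice. Other steps ran in Python 3.11.15 (scipy 1.17.1, pandas 2.3.3, numpy 2.4.6).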

Additional observations from a re-analysis of the deposited data

How the results depend on the processing

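The number of subunit genes called between NAc and PFC was 5 under each of 11 alternatives, among them the mouse number as a replicate block in the 17 mice with both regions, but in the lower range of mouse numbers Grin1, and in the upper range Grin2c, took the place of Grin3a. The block changed no call. Values that changed sign were all of genes or shares that had not passed, except 1. Grin1 was 0.17 and Grin2b 0.035 in the upper range. Grin2d became -0.45 under the block, -0.31 in those mice unblocked, -0.30 in the lower range, -0.27 without NAc libraries high in Slc17a7 and -0.027 without PFC J1160. The Gria2 share between NAc and PFC was -0.404 points in the upper range, and the Grin2d share 0.0037 points without length, 0.0237 points with the longest transcript and 0.221 points in the upper range. The exception was the Grin2b share between PFC and SCN, -6.19 points without length.

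Of the 33 share comparisons 31 passed, and 29 to 33 under the alternatives other than the lower range, where 17 passed, in part because the 4 mice there with PFC and SCN cannot give a p under 0.125. The 5 relations with Slc17a7 became 3 without the 2 farthest libraries, 1 in the lower range and 2 in the upper range, and 4 by rank or with DESeq2 size factors, where Grin1 was lost (adjusted p = 0.162 and 0.0515). The 2 relations with the SCN score became 0 by rank, without the 2 farthest libraries, in either range of mouse numbers and without the SCN libraries J1199 and J1140. No library was left out singly in turn, because groups held 17 or more. Depth limits Grin2d most, with a median of 92.5 counts per NAc library. Of 110 refitted fold changes of single genes 99 changed neither sign nor call, nor did 270 of 297 refitted share differences and 25 of 46 refitted correlations.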
